A study of Mus musculus with 12 samples.

Results

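Hsp90b1, Pdia3 and Pdia4 encode 3 protein-folding factors of the endoplasmic reticulum, and their aged over young ratios were followed over the RNA pairs, labellings and dye orientations of a mouse oocyte array study. The genes were chosen by their gene symbols in the platform annotation, with earlier results of these same ratios known, so their mean ratios are given as a description, and nothing is read from a test of them. Tests bear on differences among the RNA pairs and on the dyes. Each gene had 1 probe of its own, so the 3 genes made up 3 of 4262 single-gene probes and 3 of 3089 named genes. A further probe, 1 of 6822 listing several genes, named Parpbp together with Hsp90b1 and is shown apart. All 3 gene IDs carried the same symbol in the RefSeq table of GRCm38.p6.

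On 12 two-colour arrays, oocyte RNA of aged mice was co-hybridised with oocyte RNA of young mice. The RNAs formed 3 pairs: pair 1 set aged RNA 1 beside young RNA 1, pair 2 used aged RNA 2 and young RNA 5, and in pair 3 aged RNA 3 met young RNA 2. The labels name probe1 and probe2 for each pair and do not say what these are. They are read here as 2 labellings of the same RNAs and called labelling 1 and 2. Each labelling was hybridised with the dyes both ways round, which gave 4 arrays a pair. These 4 arrays share their RNA and count as 1 replicate. The labels give no strain, no age in weeks or months and no number of oocytes, and do not say whether each RNA is from different animals, so the spread between pairs may be technical. Young RNAs other than 1, 2 and 5 were not analysed here. The files hold ratios and no spot brightness, so the levels of oocyte markers could not be checked and how bright the spots were is unknown. The 3 RNA pairs limit the precision. Over the 12 arrays the median ratio ran from -0.316 to 0.0473 on the log10 scale, and both ends were arrays of pair 1. After centring and conversion to log2 the SD of an array ran from 0.39 to 1.23.

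Every ratio below is aged over young on the log2 scale, with the array median set to 0. Deposited values are read here as ratios of Cy5 to Cy3, a direction that is likely and not settled: it rests on the common convention for log10 ratios held within -2 and 2, while the titles name the Cy3 RNA first and no source used here states the direction. With the opposite convention every ratio below changes sign. Whether the values are dye ratios at all, or were already turned to aged over young, is also not stated. As deposited, arrays of opposite dyes correlated at a mean r of -0.196 in pair 1 across probes, and at 0.170 and 0.231 in pairs 2 and 3. The values under the second reading are given beside the genes below.

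Secreted and membrane proteins fold in the endoplasmic reticulum, where chaperones hold unfolded chains and protein disulfide isomerases make and rearrange the bonds between cysteines. In the oocyte this compartment makes the zona pellucida glycoproteins and secreted growth factors, and it is the main calcium store used at fertilisation. When unfolded chains build up, the unfolded protein response raises transcription of chaperone genes through the ER stress element (ERSE), a promoter motif bound by the factor NF-Y and by ATF6. Hsp90b1 encodes GRP94, the HSP90 paralogue of this compartment, which folds a limited set of clients such as integrins and Toll-like receptors. Pdia3 encodes ERp57, the disulfide isomerase that works with calnexin and calreticulin on glycoproteins. Pdia4 encodes ERp72, another disulfide isomerase, found together with other chaperones of the compartment.

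The promoter windows of the 3 genes are shown because all are known from other work as genes of this response, and the motif was searched for in them. Each window holds 250 bases before the annotated start site and 50 bases from it, on the strand of the gene, from RefSeq on GRCm38.p6. Hsp90b1 lies at chr10:86705395-86705694 on the minus strand, Pdia3 at chr2:121413652-121413951 on the plus strand and Pdia4 at chr6:47813463-47813762 on the minus strand. Capitals mark matches to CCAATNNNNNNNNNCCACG, the ERSE, or to the same motif with its last letter free, CCAATNNNNNNNNNCCACN, on either strand.
Hsp90b1: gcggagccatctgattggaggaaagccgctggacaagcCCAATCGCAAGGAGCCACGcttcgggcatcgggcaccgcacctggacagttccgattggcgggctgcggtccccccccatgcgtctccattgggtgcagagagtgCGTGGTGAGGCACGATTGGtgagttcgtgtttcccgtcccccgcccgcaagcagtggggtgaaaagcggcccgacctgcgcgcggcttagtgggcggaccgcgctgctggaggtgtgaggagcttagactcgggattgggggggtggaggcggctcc
Pdia3: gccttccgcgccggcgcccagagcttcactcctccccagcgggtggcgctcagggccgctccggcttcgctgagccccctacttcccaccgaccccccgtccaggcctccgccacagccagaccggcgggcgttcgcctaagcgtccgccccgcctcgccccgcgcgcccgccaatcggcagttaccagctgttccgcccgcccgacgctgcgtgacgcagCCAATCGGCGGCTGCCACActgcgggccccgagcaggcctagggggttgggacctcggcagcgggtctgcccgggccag
Pdia4: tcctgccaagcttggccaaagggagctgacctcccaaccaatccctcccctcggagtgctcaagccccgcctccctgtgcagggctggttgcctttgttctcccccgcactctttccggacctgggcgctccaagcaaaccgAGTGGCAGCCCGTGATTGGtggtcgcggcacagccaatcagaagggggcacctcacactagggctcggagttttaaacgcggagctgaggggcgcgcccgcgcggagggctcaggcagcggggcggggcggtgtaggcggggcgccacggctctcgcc

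Hsp90b1 held the full ERSE 2 times. The first match ran from -212 to -194 relative to the start site and reads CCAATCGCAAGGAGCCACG, and the second, on the opposite strand, ran from -107 to -89 and reads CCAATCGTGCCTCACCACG. Pdia3 and Pdia4 held no full ERSE in these windows, but each matched all fixed letters except the last. In Pdia3 the match lay from -29 to -11 and reads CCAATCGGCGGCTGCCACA, with A as its last letter. In Pdia4 it lay from -108 to -90 on the opposite strand and reads CCAATCACGGGCTGCCACT, with T as its last letter. The full ERSE was in 39 of 32851 mouse promoter windows of the same length (0.119%), and the form with a free last letter in 120 of them (0.365%). The free last letter was chosen after these sequences had been seen. Counted by gene, 37 of 27025 held the full ERSE (0.137%) and 116 the form with a free last letter (0.429%). Of 14 genes with a window among the measured chaperones and folding enzymes described below, 3 held the full ERSE, namely Hsp90b1, Hspa5 and Calr. The form with a free last letter was in 5, these 3 with Pdia3 and Pdia4. The ERSE is already known as a motif of chaperone genes, so these counts are a description and no enrichment is read from them. The CCAAT box, which is part of both forms, occurred in 37.4% of all windows. The ERSE-II, ATTGGNCCACG, was in 12 windows (0.0365%) and in none of these 14 genes.

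**Figure D1:**
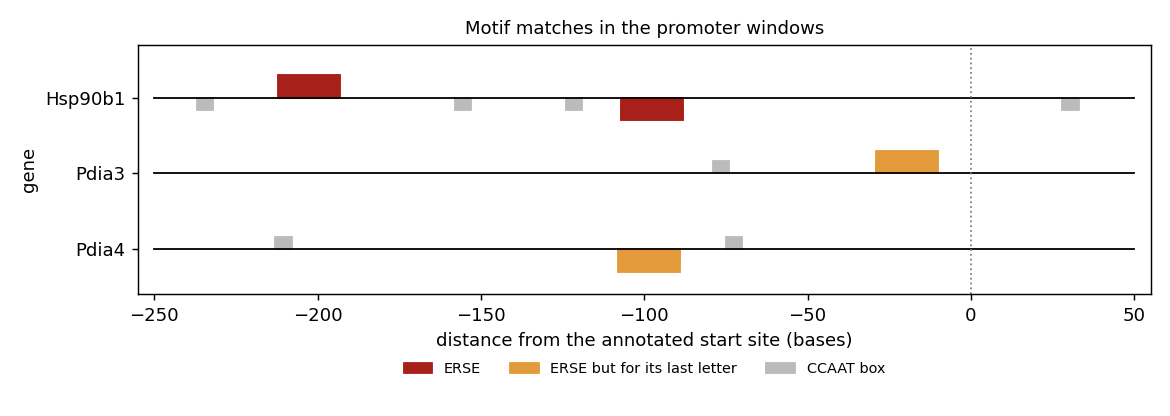
Positions of motif matches in the 3 promoter windows; the x axis is the distance from the annotated start site in bases and each line is 1 gene. Boxes above a line are matches on the strand of the gene and boxes below it are on the opposite strand; Hsp90b1 shows 2 full ERSE matches, Pdia3 and Pdia4 1 match each that differs from it in the last letter.

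Hsp90b1 lay below 0 on 11 of 12 arrays. In pair 1 its ratios were -0.78 and -1.72 in labelling 1 and -0.53 and -2.27 in labelling 2, each time with the aged RNA in Cy5 and then in Cy3. In pair 2 they were -0.92 and 0.08 in labelling 1 and -0.47 and -0.17 in labelling 2, and in pair 3 -1.09 and -0.47, then -0.92 and -0.39, in the same order. The only array above 0 was the pair 2 array of labelling 1 with aged RNA in Cy3. A row is a named gene or a probe without a single gene. Of the 21370 rows with a value in all 3 pairs, 513 lay below 0 on at least 11 arrays. The gene was chosen with these ratios known, so this is a description. Averaged within pairs the ratio of Hsp90b1 was -1.32 in pair 1, -0.37 in pair 2 and -0.72 in pair 3, and over the pairs -0.80 ± 0.48 (SD, n = 3). That mean is a level in young oocytes 1.74 times that in aged oocytes, and the gene ranked 24th from the lowest among 3089 named genes, which is 24th from the highest with the dyes read the other way. Read as already aged over young it ranked 1210 from the lowest. Its rank under the likely direction was 29 in pair 1, 385 in pair 2 and 61 in pair 3. In RNA of whole oocytes a lower ratio does not tell less RNA per cell from fewer cells, and here each array was centred, so it is lower only relative to the other probes.

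The probe that lists Parpbp with Hsp90b1 was also lowest in pair 1 and lay nearer to 0, with pairs 2 and 3 close together. In labelling 1 its pair 3 lay above pair 2, at 0.36 and 0.14, and in labelling 2 below it, at -0.32 and 0.02. The test of differences among pairs, given below, did not call this probe (limma, adjusted p = 0.702). Its pair ratios were -0.34, 0.08 and 0.02, with a mean of -0.08 ± 0.23 (SD, n = 3), and it lay below 0 on 8 of 12 arrays. Parpbp, which encodes an inhibitor of homologous recombination, lies on the same chromosome as Hsp90b1 with 19 other RefSeq genes between them, so the shared listing is not one of adjoining genes. With this probe averaged in, Hsp90b1 lay at -0.44 ± 0.35 (SD, n = 3), and its ratio was below 0 in the 3 pairs still.

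Pdia4 had a mean close to that of Hsp90b1 and a less even set of arrays behind it. In pair 1 its ratios were -0.07 and -0.64 in labelling 1 and -0.20 and -1.40 in labelling 2, again with aged RNA in Cy5 and then in Cy3. In pair 2 they were 0.22 and -1.38 in labelling 1 and 0.05 and -1.08 in labelling 2. Both pair 2 arrays with aged RNA in Cy5 were thus slightly above 0 and both with aged RNA in Cy3 well below it. In pair 3 labelling 2 gave -0.32 and -0.16, while labelling 1 gave -4.14 with aged RNA in Cy3 and a value at the limit of 2 on the deposited scale with aged RNA in Cy5. The value at the limit was left out, so pair 3 rests on 3 arrays, and it was the only 1 of the 36 values of the 3 genes left out. Both labelling 1 arrays of pair 3 were far above 0 as deposited, at 1.24 and 2 on the log10 scale, whichever RNA carried Cy5.

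The pair ratios of Pdia4 were -0.58, -0.54 and -1.23, with a mean of -0.79 ± 0.39 (SD, n = 3), a level in young oocytes 1.72 times that in aged oocytes and the 28th lowest of the named genes. That is the 28th highest with the dyes read the other way, and read as already aged over young Pdia4 ranked 29 from the highest. The size of pair 3, and of the mean behind each of these ranks, depended on the labelling 1 arrays. Without both of them pair 3 lay at -0.24 and the mean at -0.45 ± 0.19, and with the value at the limit kept pair 3 lay at 0.51 and the mean at -0.21 ± 0.62 (SD, n = 3 each). The mean without pair 3 was -0.56.

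Pdia3 lay on both sides of 0. In pair 1 its ratios were -0.36 and -0.45 in labelling 1 and -0.44 and -0.53 in labelling 2, a narrow set below 0. In pair 2 they were 0.40 and 1.03 in labelling 1 and 0.46 and 0.90 in labelling 2, all above 0. In pair 3 they were -0.68 and 0.01, then -0.25 and 0.15, with both arrays of aged RNA in Cy5 below 0 and both of aged RNA in Cy3 above. The pair ratios were -0.44, 0.70 and -0.19, and the mean over pairs was 0.02 ± 0.60 (SD, n = 3), at rank 1663 of 3089. Pairs 1 and 2 did not overlap on any array, and neither did pairs 2 and 3. The arrays of a pair are technical, and how many of all rows part in this way was not counted, so nothing is read from it.

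**Figure D2:**
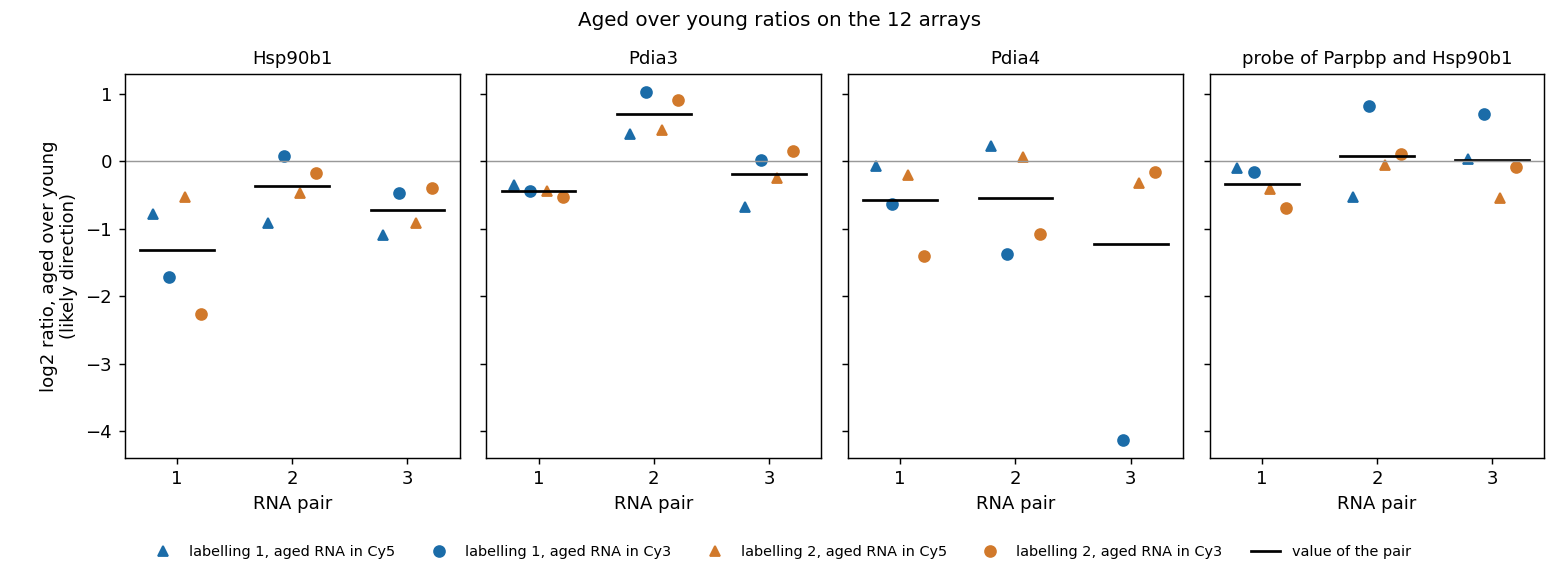
Log2 ratio of aged over young (y axis, likely direction) on each array by RNA pair (x axis), for the 3 genes and the probe shared by Parpbp and Hsp90b1. Triangles have aged RNA in Cy5 and circles in Cy3, colours give the labelling and black lines the value of the pair. Hsp90b1 sits below 0 on 11 of 12 arrays and Pdia3 above 0 on its 4 pair 2 arrays. The Pdia4 point at -4.14 is a labelling 1 array of pair 3.

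Across the whole table the aged over young ratio was fitted with limma on 1 value per pair. At an adjusted p under 0.05 it called 0 of 21370 rows (0%), and 1402 rows had an unadjusted p under 0.05. The lowest adjusted p of any row was 0.124. As the 3 genes were chosen on this contrast, nothing is read from it for them. For orientation, the median row had an absolute mean ratio of 0.14 and an SD over pairs of 0.25, and 29.8% of rows had 1 sign in the 3 pairs, as Hsp90b1 and Pdia4 did and Pdia3 did not.

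The labellings repeated each other closely for Hsp90b1 and Pdia3. Averaging a dye swap, that is the 2 arrays of 1 labelling, leaves the part of the ratio that follows the RNA. For Hsp90b1 this part was -1.25 in labelling 1 and -1.40 in labelling 2 of pair 1, -0.42 and -0.32 in pair 2, and -0.78 and -0.66 in pair 3. The gaps between labellings were 0.15, 0.10 and 0.12, below the median gaps of all rows, which were 0.35, 0.15 and 0.21 in pairs 1, 2 and 3. For Pdia3 the part was -0.40 and -0.48 in pair 1, 0.71 and 0.68 in pair 2, and -0.33 and -0.05 in pair 3. Its gaps of 0.08 and 0.03 in pairs 1 and 2 were smaller than those of most rows, at percentiles 12.4 and 11.6, and the gap of 0.28 in pair 3 was above the median. For Pdia4 the part was -0.36 and -0.80 in pair 1 and -0.58 and -0.51 in pair 2. In pair 3 Pdia4 could be computed for labelling 2 alone, at -0.24.

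Differences among the RNA pairs were tested with a limma F test on the 12 arrays, with the dye orientation in the model, a contrast other than the mean ratio. It called 1241 of 21329 rows (5.82%), and of the 3 genes it called Pdia3 (limma, adjusted p = 0.0156). Pdia3 in pair 2 exceeded pair 1 by 1.14 ± 0.22 (SE) and pair 3 exceeded pair 1 by 0.25 ± 0.22 (SE). Hsp90b1 was not called (limma, adjusted p = 0.375), with pair 2 above pair 1 by 0.95 ± 0.38 (SE), and neither was Pdia4 on its 11 arrays (limma, adjusted p = 0.771). The model held a single dye effect for all pairs, while the part of Hsp90b1 that stays with the dye was 0.67, -0.32 and -0.29. That difference entered the spread of its arrays, so the lack of a call does not show that its pairs were alike. The test sets these RNAs against the spread of their own arrays, which are technical, so it compares the RNA pairs and not the ages. Pdia3 was called under 4 of 5 alternatives run for this test, with limma adjusted p between 0.0077 and 0.0292. Under the 5th, with no sign turned by the dyes, it was not called (limma, adjusted p = 0.929). That reading called 0 of 21329 rows with limma, 2209 having an unadjusted p under 0.05, so every pair call given here holds for dye ratios only.

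Each dye swap also has a part that stays with the dye. Over all rows this part was large, and limma called a dye effect in 4919 of 21329 rows (23.1%). Under the likely direction 2495 of them leaned to Cy5 and 2424 to Cy3, relative to the array median. None of the 3 genes was called under that direction. If the deposited ratios were aged over young as they stand, this term would be the ratio on which the genes were chosen. The p values below are therefore given for dye ratios only, and nothing is read from them under that reading. The fitted dye effect was 0.65 ± 0.28 for Pdia4 on 11 arrays (SE; limma, adjusted p = 0.104), larger than that of 94.9% of rows. It was -0.17 ± 0.09 for Pdia3 (SE; limma, adjusted p = 0.183) and 0.02 ± 0.16 for Hsp90b1 (SE; limma, adjusted p = 0.936). The fit of Pdia4 includes the pair 3 array at -4.14 without its swap partner, so the size of its dye effect depends on that array. With the limit and 0 values kept the effect was 1.26 (limma, adjusted p = 0.131).

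The near-zero dye effect of Hsp90b1 was a mean of unlike pairs. Its dye part averaged 0.67 in pair 1, -0.32 in pair 2 and -0.29 in pair 3, and both labellings of each pair had the same sign. That of Pdia3 was 0.04, -0.27 and -0.27, and that of Pdia4 0.44 and 0.68 in pairs 1 and 2 and -0.08 in labelling 2 of pair 3. Over all rows the dye parts of pairs 2 and 3 correlated at r = 0.761, and those of pair 1 with pairs 2 and 3 at 0.316 and 0.378, across rows that are not independent replicates.

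If the deposited values were already aged over young, the dye part would be the ratio of the RNAs and the RNA part would follow the dye. Under that reading the mean ratio was 0.02 ± 0.56 for Hsp90b1, -0.17 ± 0.18 for Pdia3 and 0.68 ± 0.24 for Pdia4 (SD, n = 3 each), so that Pdia4 and Hsp90b1 no longer lay alike. Pair 3 of Pdia4 then lay at 0.92, with its array at the limit left out and the swap partner, deposited at 1.24, kept. The only complete swap of that pair, labelling 2, lay at -0.08 under this reading. The size of pair 3 and of the mean of 0.68 thus depended on the array at 1.24. After turning by the dyes, both arrays of a swap had 1 sign in 5 of 6 swaps for Hsp90b1, 4 of 6 for Pdia3 and 3 of 5 for Pdia4. Over all rows this was so in 42.9% of swaps, at 46.0%, 41.1% and 41.6% in pairs 1, 2 and 3. The genes were chosen with ratios of these arrays known, so nothing is read from their counts.

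**Figure D3:**
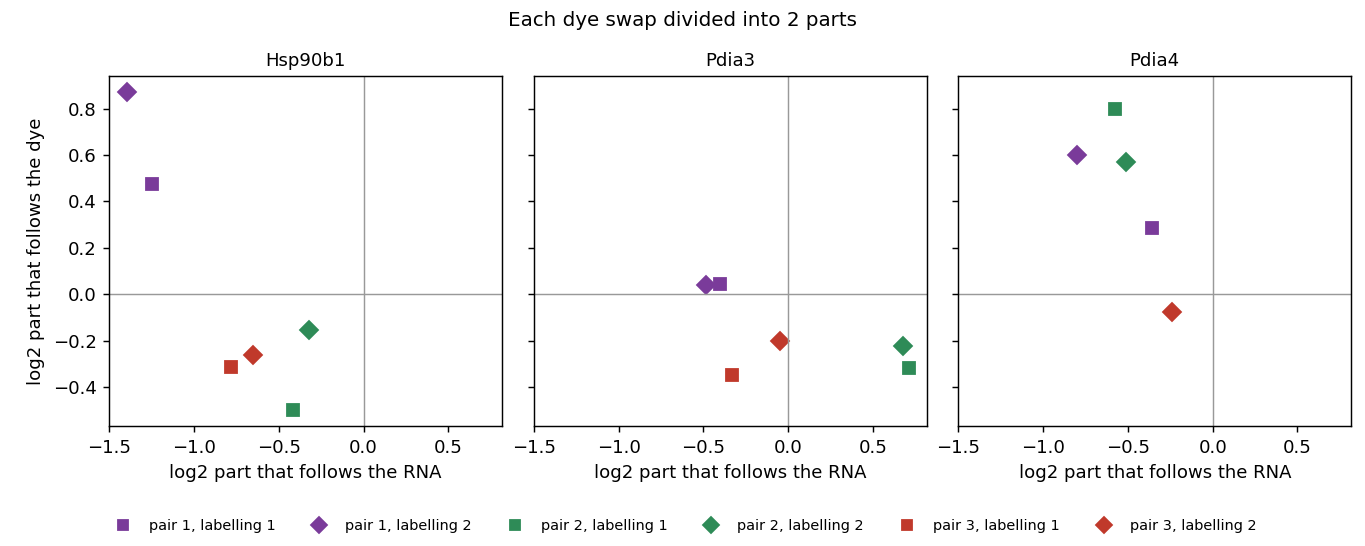
For each gene, the part of a dye swap that follows the RNA (x axis, log2) against the part that follows the dye (y axis, log2), 1 point per RNA pair and labelling. Hsp90b1 lies left of 0 in all 6 swaps with dye parts on both sides of 0, the 2 pair 2 points of Pdia3 stand apart on the right, and Pdia4 has 5 points because 1 swap lacks an array.

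Other chaperones and folding enzymes of the compartment were taken from a list of 49 genes, of which 15 had a probe of their own, the 3 genes included, and 19 were found only on probes listing several genes. Of the 15, 8 had a mean ratio below 0 and 7 above, with a median of -0.03. Over all named genes 49.9% lay below 0, with a median of 0.00055, and over all rows 43.1%, with a median of 0.03. None was called for age, lower or higher, against 0% of all rows. In the list 4 genes lay below 0 in the 3 pairs and 1 above 0, that is 33.3% with 1 sign, against 32.7% of named genes, of which 504 of 3089 lay below 0 and 507 above.

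Hspa5, which encodes BiP, the HSP70 of the compartment which also holds the sensors of the unfolded protein response inactive, lay at -0.78 in pair 1, -0.02 in pair 2 and -0.67 in pair 3. Its mean was -0.49 ± 0.41 (SD, n = 3), and its 3 probes lay at -0.51, -0.43 and -0.53. Hspa5, Hsp90b1 and the glucosyltransferase Uggt1, which returns unfolded glycoproteins to calnexin, shared an order of pairs, lowest in pair 1 and highest in pair 2. Uggt1 lay at -0.99, 0.04 and -0.47. Vkorc1, the vitamin K epoxide reductase, had the same order at -1.16, 0.28 and -0.52, and so did Pdia3. The test of differences among pairs called Pdia3 and Vkorc1. It did not call Hspa5, Hsp90b1 or Uggt1 (limma, adjusted p = 0.215, 0.375 and 0.107). How many of all rows have this order was not counted, so it is not read as a trait of the list. Calr, the calcium-binding chaperone calreticulin that works with ERp57, lay at -0.45, 0.31 and 0.32, below 0 in pair 1 alone.

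The others ran from Ppib, the cyclophilin of the compartment, at 0.52 ± 0.83 (SD, n = 3), to Tmx3, a membrane-bound isomerase, at -0.07 ± 0.08. Ppib lay at 1.37, 0.47 and -0.28, highest in pair 1 where Hsp90b1 was lowest. Between them were Txndc12 and Cnpy3, at 0.09 each, Uggt2 at 0.07, Serpinh1, the collagen chaperone, at 0.01, Selenof at -0.03 and the prolyl isomerase Fkbp9 at -0.04. The pair test called 3 of the 15, which were Pdia3, Ppib (limma, adjusted p = 0.0264) and Vkorc1 (limma, adjusted p = 0.0130), against 5.82% of all rows. The dye test called 3, all leaning to Cy5 relative to the array median, namely Txndc12, Fkbp9 and Serpinh1, against 23.1% of all rows.

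**Figure D4:**
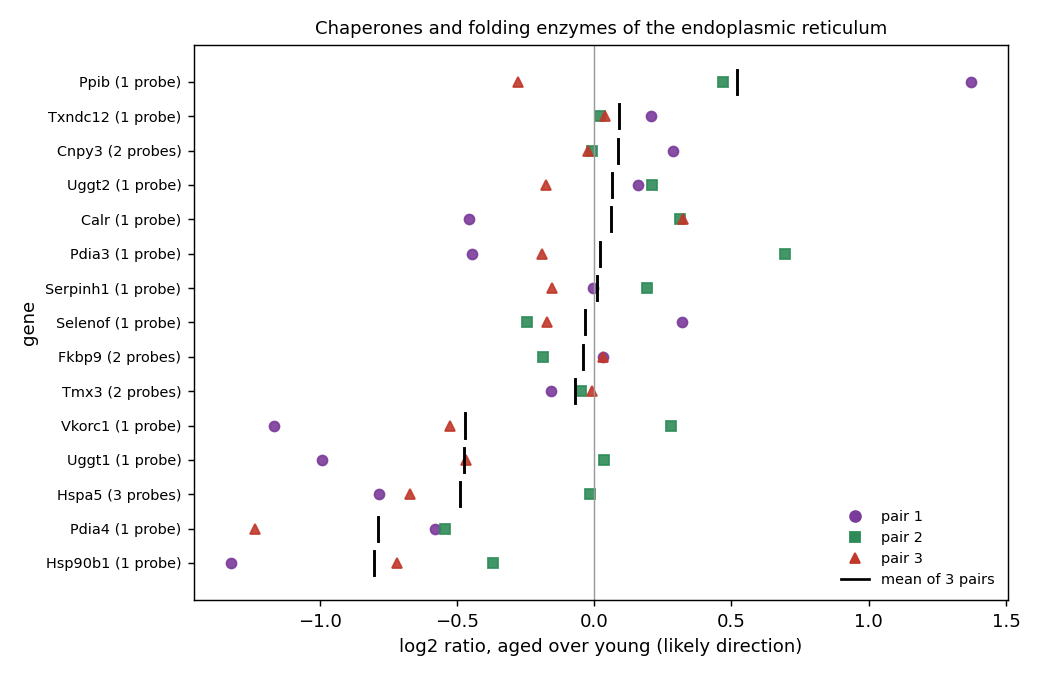
Log2 ratio of aged over young (x axis, likely direction) in the 3 RNA pairs for the 15 measured chaperones and folding enzymes of the endoplasmic reticulum (y axis), ordered by the mean of the pairs, drawn as a black bar. Hsp90b1 and Pdia4 have the lowest means, at -0.80 and -0.79, and Pdia3 stands near the middle with its pair 2 value at 0.70. The Pdia4 mean was -0.45 without the labelling 1 arrays of pair 3 and -0.21 with the limit and 0 values kept.

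Of the genes that act around these factors none was called for age. Of 14 J proteins and exchange factors only Dnajb11, the J protein partner of BiP, had a probe of its own, at -0.21 ± 0.23 (SD, n = 3). In the unfolded protein response 3 of 8 measured genes lay below 0 and 5 above, with a median of 0.05. Among them were Atf6, the sensor that becomes a transcription factor for ERSE genes, at 0.15 ± 0.15, and Nfyb, a subunit of NF-Y, at 0.35 ± 0.37. Nfya, another subunit of NF-Y, lay on the other side of 0, at -0.21 ± 0.50 (SD, n = 3), with pair ratios of -0.03, -0.77 and 0.17. In degradation from the endoplasmic reticulum 4 of 9 lay below 0, with a median of 0.03, with the selenoprotein Selenos at 0.34 ± 0.07 and the deglycosylating enzyme Ngly1 at -0.53 ± 0.15. In the translocon and N-glycosylation list 11 of 16 lay below 0, with a median of -0.08. Sec61a1, the pore subunit of the translocon, lay at 0.54 ± 0.05 and Sec11c, a subunit of signal peptidase, at -0.24 ± 0.12 (SD, n = 3 each).

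Marker genes of the oocyte and of other cells were read as ratios only. Of 4 measured oocyte markers Dppa3, a maternal-effect gene, lay at 0.62 ± 0.20, Kit, the receptor of oocyte growth, at -0.70 ± 0.36, and Bmp15, a growth factor of the oocyte, at -0.31 ± 0.48. The fourth, the zona protein gene Zp2, lay at -1.69 in pair 1, 0.56 in pair 2 and -2.41 in pair 3. It had its only ratio above 0 in pair 2, as Pdia3 had, and the pair test called it (limma, adjusted p = 0.0010). The 3 measured cumulus and granulosa markers ran from -0.15 to 0.09, with Inhbb at -0.15 ± 0.14 and Cyp11a1 at -0.09 ± 0.07, and the 5 blood and immune markers from -0.02 to 0.36, with H2-Aa at 0.36 ± 0.12 and Csf1r at 0.17 ± 0.10 (SD, n = 3 each). Their part in the ratios of the 3 genes was not tested.

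Over the arrays Hsp90b1 and Pdia3 had a Pearson r of 0.710 (12 arrays). Pdia4 had an r of -0.06 with Hsp90b1 and of -0.05 with Pdia3 (11 arrays each). The probe shared with Parpbp had an r of 0.633 with Hsp90b1 and 0.507 with Pdia3 (12 arrays each), and of -0.62 with Pdia4 (11 arrays). Each r of Pdia4 includes its array at -4.14, on which the shared probe lay at 0.69. The arrays share RNAs, labellings and dye effects and are not independent, so the values are descriptions. Among 3078 named genes the profile most like that of Hsp90b1 was that of Ube2j2, a ubiquitin-conjugating enzyme of the endoplasmic reticulum membrane, at r = 0.975 and with pair ratios of -0.54, -0.01 and -0.27. Next were Dhx29 at 0.964, Tbc1d31 at 0.959, Mrpl51 at 0.946 and Anxa6 at 0.940. Those most like Pdia3 were Fcgbp at 0.965, Fam50a at 0.956, Traf6 at 0.944, Rps21 at 0.940 and Ago4 at 0.912. Those most like Pdia4 were Tap2 at 0.968, Msx1 at 0.962, Hopx at 0.935, Pabpc1 at 0.932 and Agrn at 0.916, over 11 arrays that include the single ratio of -4.14.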

How the data were processed

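The data were 12 two-colour arrays of mouse oocyte RNA, with dyes, RNA numbers and probe numbers, read as labellings, taken from the labels. The values deposited by the authors were read as log10 ratios of both channels, a reading taken from the values, which lie between -2 and 2. The sources used here give no scanner, background correction, dye normalization, centring or direction. Values exactly at the limits (1215) or exactly 0 (513), 0.638% of all, were treated as missing, a choice made with the values known. Values were converted to log2, centred on each array's median, and the sign of arrays with aged RNA in Cy3 was turned. A pair value is the mean of its 2 orientation means. Probes with 1 and the same gene symbol were averaged, and other probes stayed rows of their own. The 32 rows without a value in all 3 pairs were not tested.

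Tables were read through data.table (version 1.17.8) under R 4.3.3, and limma 3.58.1 fitted the 3 pair values against 0, and the 12 arrays with pair and dye orientation as terms, the latter in rows with at least 8 values. Tests were two-sided except the F test, with Benjamini-Hochberg adjustment over all rows. On simulated data, with the same dye effect in every pair, only the sizes of the age and dye estimates were checked. The F test among pairs had no such check. Promoter windows are RefSeq's, on GRCm38.p6. The genes, lists and tests were chosen with earlier results of these data known. Named besides the 3 genes were every measured gene of the first list, up to 2 members of the other lists with the lowest spread relative to their mean, and the 5 genes most correlated with each gene. Bmp15, Zp2, Nfya and the probe values of Hspa5 were added after the values were seen. Alternatives covered centring, scaling, limit values, labellings, orientations, direction, left-out replicates and shared probes.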

Additional observations from a re-analysis of the deposited data

Results flagged for a closer look

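Pdia3 drew attention because its aged over young ratio differed among the RNA pairs by a test of that difference (limma F test, adjusted p = 0.0156). Its pair ratios were -0.44, 0.70 and -0.19, and pair 2 lay above 0 on 4 of 4 arrays. This holds with the values taken as dye ratios. Read as already aged over young the pair ratios were 0.04, -0.27 and -0.27, and the difference was not called (limma, adjusted p = 0.929). The pairs are replicates of 1 contrast and not conditions, and which of the aged and young RNAs differed from the others was not tested, since no array set one pair against another. Groups of 4 arrays, those of 1 pair, were searched for a single array far from the others, and none was found for the 3 genes or the shared probe. Pdia4 in pair 3 had 3 arrays and was not searched, and its array at -4.14 is given with the other values of that gene.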

How the results depend on the processing

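Hsp90b1 stayed below 0 under 12 of 13 alternatives, between -1.02 and -0.44, and moved by more than its SD only when the values were read as already aged over young (0.020). Pdia4 stayed below 0 under 11 of 12, and moved by more than its SD with the limit and 0 values kept (-0.21), with aged RNA in Cy5 only (-0.11) or in Cy3 only (-1.47), and read as already aged over young (0.68). With labelling 1 alone Pdia4 had a value in pairs 1 and 2 only. Pdia3 ran from -0.32 to 0.25 over 12 alternatives, 5 of them below 0, all within its SD. The call count for age, 0 of 21370 rows, was 13 without centring, 10 without the labelling 1 arrays of pair 3 (an alternative added after seeing the data, as for the 3 genes), and 0 to 43 with 1 replicate left out, the 43 without replicate 1. The 3 pairs are the replicates and limit every SD. Calls among RNA pairs dropped to 451 with arrays scaled to one spread, against 1241. Read as already aged over young, an alternative added after seeing the data for these counts, calls among pairs were 0 (limma; 2209 rows at an unadjusted p under 0.05) and calls of the dye term 517, against 4919. Under the other 4 alternatives the dye calls stayed within 1.5 times. Leaving out the centring shifted the means of the genes by about -0.11, almost wholly through pair 1. Hsp90b1 then lay at -1.66 in pair 1, against -1.32 with centring, and its pairs 2 and 3 stayed at -0.37 and -0.72. The cause of these changes was not tested, apart from the Pdia4 value of -0.21, where 1 value at the limit enters.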
